A study of Mus musculus with 2 samples.

Results

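A set of 10 genes that make, break down or export hepatic triglyceride was examined in livers of high-fat diet (HFD)-fed mice: *Gpam*, *Agpat2*, *Lpin1*, *Lpin2*, *Dgat1*, *Dgat2*, *Mogat1*, *Pnpla2*, *Pnpla3* and *Mttp*. They were chosen by their known function, 10 of the 45777 genes of the table, and the estimated read counts of all transcripts of a gene symbol were summed. Both groups were C57BL/6 N mice that were 7 weeks old when the HFD began and ate it for 18 weeks, and both received an adeno-associated virus (AAV) through the retro-orbital sinus at week 13 of the diet. The AAV carried GFP in the control group (AAV-GFP) and the long noncoding RNA *Wee1-AS* in the other (AAV-*Wee1-AS*). According to the study's methods, the vector was of a serotype that is not restricted to hepatocytes, with the CMV promoter, which is active in many cell types. The series is described as holding 4 liver samples, and the comparison here rests on 1 library of poly-A RNA from each group. It has no replicate check, the variation from mouse to mouse is unknown, and no p-value is given. *Wee1-AS* itself was not analysed here.

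Hepatocytes build triglyceride by adding fatty acyl chains to glycerol 3-phosphate one after another, removing the phosphate, and closing the molecule with a last acyl chain. The product is kept in lipid droplets, where lipases release its fatty acids, or it is loaded onto apolipoprotein B in the endoplasmic reticulum and leaves the cell in very-low-density lipoprotein (VLDL). In a steatotic liver, synthesis and uptake outweigh breakdown and export.

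The AAV-GFP library held 55466182 estimated counts and that of AAV-*Wee1-AS* 48079335. The 7 hepatocyte markers, among them albumin, summed to 4132589 and 4203478 counts, with none past 2-fold as measured, which fits the liver label. Of 7 adipocyte markers, 3 passed the count filter, *Plin1* and *Lep* were at 0 in both libraries and *Adipoq* had 2 counts in each. The adipocyte list summed to 8279 and 1737 counts. Of these, *Cidec*, a lipid droplet gene that fatty hepatocytes also express, gave 7683 and 1236, past 2-fold lower with AAV-*Wee1-AS*. Exocrine pancreas markers summed to 5 and 4 counts and skeletal muscle markers to 20 and 2. The latter were all of *Mylpf*, past 2-fold lower with AAV-*Wee1-AS* but on few counts. Of 7 Kupffer cell and macrophage markers (18303 and 14244 counts in sum), *Vsig4*, *Timd4* and *Marco* were past 2-fold higher with AAV-*Wee1-AS*. Of 7 stellate cell markers (14498 and 11970), *Lrat* and *Rgs5* were past it higher and *Col1a1* and *Pdgfrb* lower. Of all genes, 22.5% were past 2-fold higher and 8.43% lower. Of the markers named, *Cidec*, *Mylpf*, *Marco* and *Col1a1* remained past 2-fold after removal of the trends with GC content and length described below. No endothelial (14410 and 10978) or cholangiocyte marker (2159 and 1618) was past 2-fold as measured. With the trends removed, the cholangiocyte marker *Spp1*, at -1.11 in log2 ratio, and the hepatocyte marker *Ttr*, at -1.02, were past 2-fold lower. Of 12 circadian clock genes, 4 were past 2-fold higher and 2 lower, and *Nr1d2*, *Cry1* and *Npas2* remained so with the trends removed. One of the 2 lower genes, *Npas2*, had 15 and 0 counts, so the size of its ratio was not measured. The part of these markers in the results below was not tested. In bulk tissue, fewer cells of a type and less RNA per cell cannot be told apart.

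Between the libraries, 7 of the 10 genes were lower with AAV-*Wee1-AS* and 3 were higher. *Mogat1* and *Pnpla3* fell past 2-fold, while *Gpam*, *Lpin2* and *Mttp* were higher by 1.36-, 1.40- and 1.37-fold. Log2 ratios are given with AAV-GFP as the denominator, and their median was -0.46 over the 10 genes and -0.00205 over the 15857 genes that reached 10 counts in 1 or both libraries, a filter that all 10 passed. A ratio below 0.5 was found for 2 of the 10 genes and 8.43% of all genes, a ratio above 2 for 0 of the 10 and 22.5% of all genes, and a ratio past 2-fold in either direction for 2 of the 10 and 31.0% of all genes. Each ratio is given with an exact (Clopper-Pearson) 95% interval from its counts. This interval covers the error of counting alone, and PCR copies of a molecule count more than once, so it describes these 2 libraries and not the treatments. It lay wholly below 1 for 7 of the 10 genes (37.4% of all genes), wholly above 1 for 3 (39.6%), and wholly below 0.5 for *Mogat1* alone (3.61%).

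**Figure D1:**
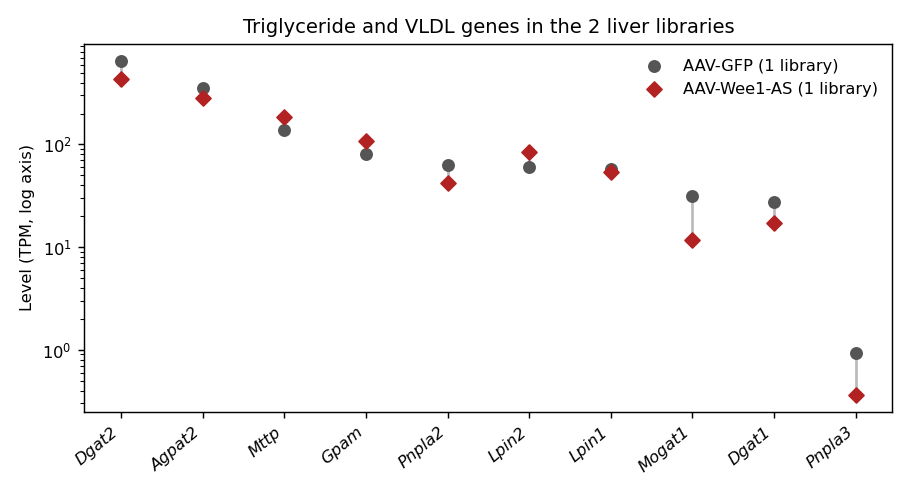
Level of each gene in TPM (log axis), as AAV-GFP (grey circles) and AAV-*Wee1-AS* (red diamonds), ordered by the AAV-GFP level. Each point is 1 library, so no error bar is drawn. Levels run from 654 TPM for *Dgat2* to 0.940 TPM for *Pnpla3* with AAV-GFP.

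Levels were compared between genes in TPM, a unit scaled by transcript length and to the same sum in each library. The 10 genes together summed to 1471 TPM with AAV-GFP and 1218 TPM with AAV-*Wee1-AS*. *Dgat2* was the most abundant in both libraries, followed by *Agpat2*, *Mttp* and *Gpam* in both. *Pnpla2*, *Lpin2* and *Lpin1* lay close together with AAV-GFP, at 63.6, 60.9 and 57.7 TPM. With AAV-*Wee1-AS* they lay at 42.4, 83.9 and 53.7 TPM, so *Pnpla2* went from first to last of the 3. *Mogat1* and *Dgat1* also exchanged places, and *Pnpla3* was last in both. With 1 library per group, whether neighbors in this order differ beyond the spread between mice could not be tested.

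The first acylation is carried out by glycerol 3-phosphate acyltransferases, of which *Gpam* encodes the mitochondrial form. *Gpam* (mm10, chr19:55067635-55127319) had 16457 counts with AAV-GFP and 18479 with AAV-*Wee1-AS*, or 80.8 and 107 TPM. Its log2 ratio was 0.44 (95% counting interval 0.41 to 0.48). *Agpat2*, whose enzyme adds the second chain to make phosphatidic acid, went the other way. *Agpat2* (chr2:26593057-26604417) had 18247 and 11680 counts, 356 and 281 TPM, and a log2 ratio of -0.37 (-0.40 to -0.33). The TPM of *Agpat2* was thus 4.41 times that of *Gpam* with AAV-GFP and 2.62 times with AAV-*Wee1-AS*.

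Lipins remove the phosphate from phosphatidic acid to give diacylglycerol. *Lpin1* (chr12:16535669-16653903), whose protein also acts as a transcriptional coactivator, had 10565 counts with AAV-GFP and 8332 with AAV-*Wee1-AS*, 57.7 and 53.7 TPM. Its log2 ratio of -0.06 (-0.11 to -0.02) was the one closest to 0 among the 10. *Lpin2* (chr17:71183532-71249818) had 11729 and 13592 counts, 60.9 and 83.9 TPM, and a log2 ratio of 0.49 (0.45 to 0.53). The TPM of *Lpin2* was 1.06 times that of *Lpin1* with AAV-GFP and 1.56 times with AAV-*Wee1-AS*.

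Diacylglycerol acyltransferases close the molecule. *Dgat2* (chr7:99153663-99182713), the form that acts at lipid droplets, had 48482 counts with AAV-GFP and 27422 with AAV-*Wee1-AS*, or 654 and 436 TPM. The log2 ratio of *Dgat2* was -0.54 (-0.57 to -0.52). *Dgat1* (chr15:76502012-76512021), an enzyme of a different protein family with the same reaction, had 1742 and 929 counts, 27.4 and 17.1 TPM, and a log2 ratio of -0.63 (-0.75 to -0.51). Both forms were thus lower to a like degree, and *Dgat2* stayed at 23.9 and 25.5 times the TPM of *Dgat1*.

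*Mogat1* encodes a monoacylglycerol acyltransferase, which makes diacylglycerol from monoacylglycerol and is known to be raised in steatotic mouse liver. *Mogat1* (chr1:78511060-78606964) fell from 1272 counts to 405, or from 31.4 to 11.8 TPM. This was 0.387-fold (0.344 to 0.432) and a log2 ratio of -1.37 (-1.54 to -1.21), the lowest of the 10. *Dgat2* was 20.8 times as abundant as *Mogat1* in TPM with AAV-GFP and 37.1 times with AAV-*Wee1-AS*.

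Triglyceride in droplets is first cut by adipose triglyceride lipase, the product of *Pnpla2*. *Pnpla2* (chr7:141455188-141460743) had 5543 counts with AAV-GFP and 3122 with AAV-*Wee1-AS*, 63.6 and 42.4 TPM, and a log2 ratio of -0.55 (-0.61 to -0.49). *Pnpla3*, which encodes a related droplet protein, was scarce. *Pnpla3* (chr15:84167776-84189521) fell from 137 counts to 50, or from 0.940 to 0.362 TPM, which was 0.451-fold. Its log2 ratio of -1.15 had the widest interval of the 10 (-1.67 to -0.70), and this interval reaches inside 2-fold. *Pnpla3* overlaps a predicted gene that had 94 and 51 counts, and *Gpam* one that had 60 and 48, and how reads were divided between overlapping genes is not given in the sources used here.

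*Mttp* encodes microsomal triglyceride transfer protein, which loads lipid onto apolipoprotein B. *Mttp* (chr3:138089855-138143418) had 19295 counts with AAV-GFP and 21754 with AAV-*Wee1-AS*, or 139 and 184 TPM. Its log2 ratio was 0.45 (0.42 to 0.48).

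**Figure D2:**
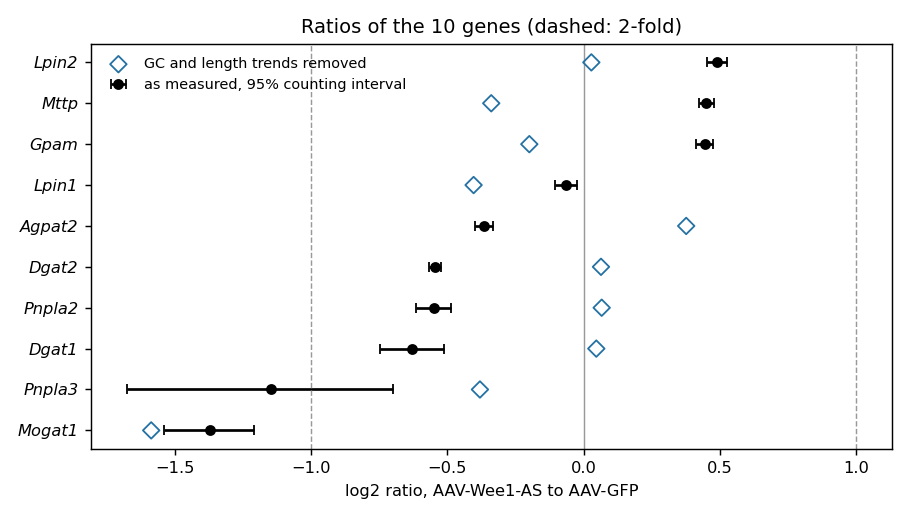
Log2 ratio, AAV-*Wee1-AS* over AAV-GFP, of each gene. Black points with bars are the ratios as measured with their 95% counting interval, open blue diamonds the ratios after trends with GC content and length were removed, and dashed lines mark 2-fold. *Mogat1* lies below -1 in both, *Pnpla3* moves from -1.15 to -0.38, and *Dgat1*, *Dgat2* and *Pnpla2* move to between 0.05 and 0.07.

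Across all genes, the ratio varied with the base composition of transcripts, and this bears on each of the values above. Over the 14995 genes with a GC value, the Spearman coefficient of the log2 ratio was -0.69 with GC content and 0.35 with transcript length. Over the 10 genes it was -0.43 and 0.85. Length here was that of the annotated transcript that gave the GC content, which for *Pnpla3* has 1313 bases, against 4360 for its most abundant deposited one. These coefficients run across genes that share the same 2 libraries and are descriptions only. *Dgat1*, *Dgat2*, *Pnpla2* and *Agpat2*, with a GC content of 56.3% to 58.0%, fall in group 9 when all genes are divided by rising GC content into 10 groups of equal size, and the median log2 ratio of that group was -0.60. *Mttp* (45.9%), *Gpam* (48.6%) and *Lpin2* (49.2%) fall in groups 3, 5 and 5, with medians of 0.74, 0.14 and 0.14. *Mogat1* (47.9%) falls in group 4, with a median of 0.47, in which 3.27% of genes were past 2-fold lower. *Pnpla3* (58.4%) falls in group 10, with a median of -0.68, in which 20.0% were.

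**Figure D3:**
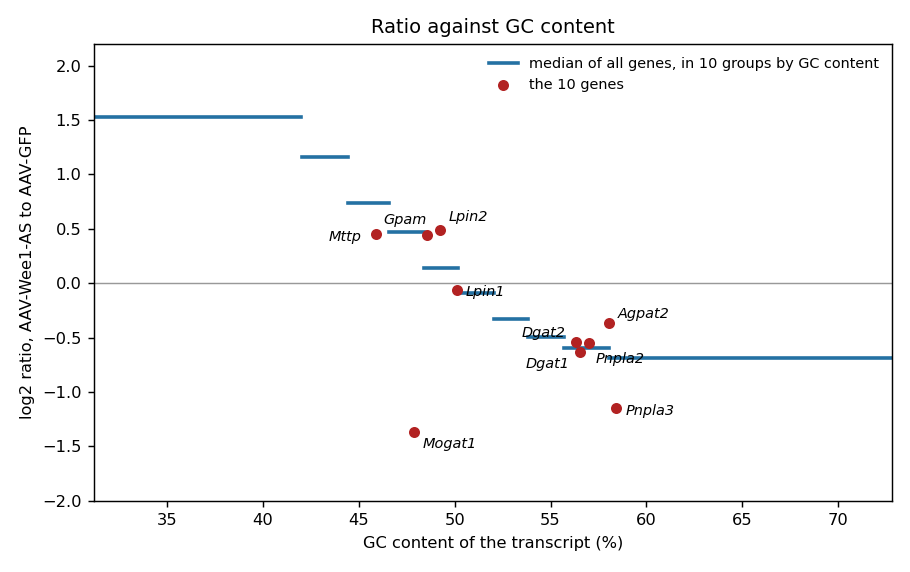
Log2 ratio, AAV-*Wee1-AS* over AAV-GFP, against the GC content of the transcript. Blue lines are the medians of all genes in 10 groups by GC content, and red points are the 10 genes, 1 library per group. *Mogat1* lies at -1.37 where the median of all genes is 0.47, and *Dgat1*, *Dgat2* and *Pnpla2* lie near the median of -0.60.

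With the trends with GC content and length removed by lowess fits, 1 of the 10 genes had a ratio below 0.5, against 8.2% of all genes, and 0 had a ratio above 2, against 6.53%. The median of the 10 genes was then -0.085, with 5 lower and 5 higher. *Mogat1* had a log2 ratio of -1.59 and remained past 2-fold. *Pnpla3* was at -0.38, and *Lpin1* was at -0.40. *Dgat1*, *Dgat2*, *Pnpla2* and *Agpat2* turned direction, to 0.05, 0.06, 0.07 and 0.38. *Gpam* and *Mttp* turned as well, to -0.20 and -0.34, and *Lpin2* was at 0.03. The length used here was that of the annotated transcript that gave the GC content. With the length of the most abundant deposited transcript in its place, a choice made after these values were seen, *Lpin2* was at -0.04, *Pnpla3* at -0.75 and *Mogat1* at -1.54. For *Pnpla3*, the annotated transcript has 1313 bases and the most abundant deposited one 4360, so its value after removal depends on this choice. Its GC content also comes from the transcript of 1313 bases. Its GC group and both of its values after removal rest on that transcript. A base composition trend between the libraries and a difference between the livers cannot be told apart with 1 library per group.

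The counts of a gene are divided among its RefSeq transcripts by estimation, since overlapping transcripts share reads. The 10 genes have 56 transcripts in the table, of which 40 had a count and 16 were at 0 in both libraries. The main transcript of *Agpat2*, with 1574 bases, went from 16989 counts to 7806 and from 93.1% to 66.8% of the gene. A shorter one of 1345 bases went from 1258 to 3874, with a 95% counting interval of the log2 ratio from 1.81 to 1.99. The total of *Agpat2* therefore sums transcripts whose estimated counts moved in opposite directions. *Lpin1* did the same on a smaller scale. Its transcript of 5581 bases went from 6393 counts to 3468. Those of 5626 and 5482 bases went from 2154 to 2366 and from 1940 to 2371. In both genes these transcripts overlap, and the counting intervals do not cover how shared reads were assigned. Whether the transcripts themselves changed in opposite directions was not tested.

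**Figure D4:**
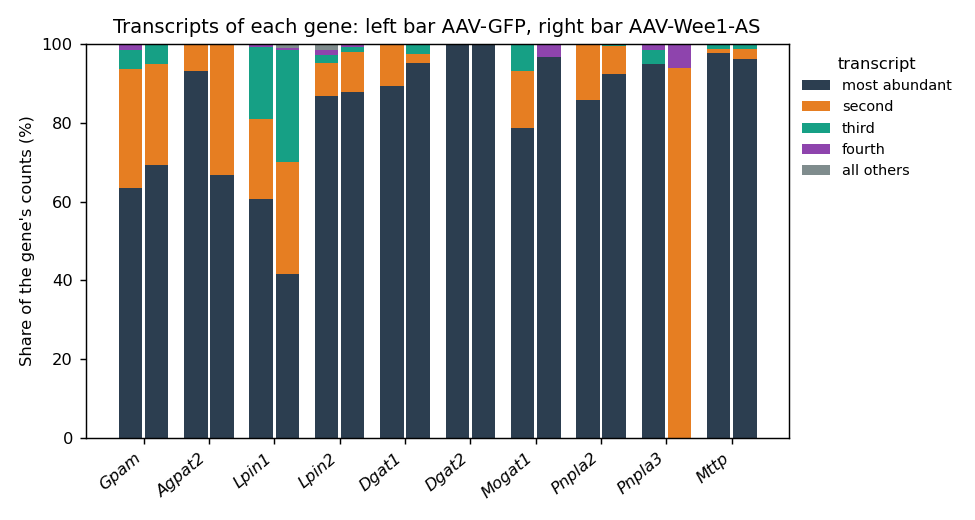
Share of each gene's estimated counts held by its transcripts, in percent, with the AAV-GFP library as the left bar and the AAV-*Wee1-AS* library as the right bar of each pair. Transcripts are ordered by their summed counts. The main transcript of *Agpat2* goes from 93.1% to 66.8%, and *Pnpla3* goes from one transcript to another.

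In *Mogat1*, the fall was present in the main transcript of 1260 bases, which had 1001 and 392 counts (log2 ratio -1.07, -1.25 to -0.90). A transcript of 1079 bases had 184 and 0 counts, at least 50.6-fold lower, and one of 1206 bases had 87 and 0, at least 23.9-fold lower. These bounds take 3 counts as the floor of a library. Both transcripts overlap the main one and begin close to it, and the bounds do not cover how shared reads were assigned. Whether the 0 counts reflect that assignment was not tested. The transcripts that begin close together there, taken as a whole, had 1272 and 392 counts (log2 ratio -1.42, -1.59 to -1.26). In *Pnpla3*, a transcript of 4360 bases held 130 counts with AAV-GFP and 0 with AAV-*Wee1-AS*, and a noncoding one of 4875 bases held 0 and 47. Nearly all *Pnpla3* counts were thus assigned to a different transcript in each library. Noncoding transcripts of *Dgat1* (183 and 21 counts) and *Pnpla2* (783 and 216 counts) were lower by more than the coding ones, which had 1556 and 885 counts in *Dgat1* and 4760 and 2888 in *Pnpla2*. *Dgat2* has a single transcript. The main transcripts of *Mttp* (18850 and 20897 counts), *Lpin2* (10167 and 11920) and *Gpam* (10452 and 12790) went the way of their genes. A *Gpam* transcript of 6246 bases had 4972 and 4773 counts, with a log2 ratio of 0.22 (0.16 to 0.28) once scaled to the libraries. A *Lpin2* transcript of 5751 bases had 989 and 1393 (0.77, 0.65 to 0.89).

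Transcripts of *Gpam* and *Lpin2* begin at several places, and the 250 bases before the starts are shown to compare the start that carries most counts with another, beside those of *Mogat1* and *Pnpla3*, the genes past 2-fold. The sequences are from RefSeq (GRCm38.p6), 5′ to 3′ on the strand of the gene, and 8 of the 10 genes had an entry. A total of 4 motifs was searched on both strands, none of which contains another: the E-box CACGTG, found in 6.02% of the 32851 mouse promoters of this length, the sterol regulatory element TCACNCCAC (1.05%), the direct repeat bound by nuclear receptors, AGGNCA repeated after 1 base (0.338%) and the CCAAT box (33.8%). Capitals mark the matches, and ATTGG is CCAAT on the other strand. The regions are, in order, chr19:55127239-55127488 and chr19:55099478-55099727 on the minus strand for *Gpam*, and on the plus strand chr17:71204404-71204653 and chr17:71183282-71183531 for *Lpin2*, chr1:78510810-78511059 for *Mogat1* and chr15:84167566-84167815 for *Pnpla3*.
Gpam upstream start: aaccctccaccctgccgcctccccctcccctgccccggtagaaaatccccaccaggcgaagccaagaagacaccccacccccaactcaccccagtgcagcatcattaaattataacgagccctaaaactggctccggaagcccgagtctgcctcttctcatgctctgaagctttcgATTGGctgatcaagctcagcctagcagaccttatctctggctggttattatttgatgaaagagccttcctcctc
Gpam downstream start: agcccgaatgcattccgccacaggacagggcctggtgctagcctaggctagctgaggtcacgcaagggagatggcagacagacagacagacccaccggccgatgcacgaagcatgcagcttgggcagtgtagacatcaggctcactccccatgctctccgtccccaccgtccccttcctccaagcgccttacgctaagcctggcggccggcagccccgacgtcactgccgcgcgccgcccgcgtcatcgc
Lpin2 downstream start: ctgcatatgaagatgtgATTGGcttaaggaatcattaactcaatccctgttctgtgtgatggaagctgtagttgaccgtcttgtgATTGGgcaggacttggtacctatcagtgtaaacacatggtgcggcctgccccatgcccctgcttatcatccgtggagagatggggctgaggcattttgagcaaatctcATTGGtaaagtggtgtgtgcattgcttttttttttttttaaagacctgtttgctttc
Lpin2 upstream start: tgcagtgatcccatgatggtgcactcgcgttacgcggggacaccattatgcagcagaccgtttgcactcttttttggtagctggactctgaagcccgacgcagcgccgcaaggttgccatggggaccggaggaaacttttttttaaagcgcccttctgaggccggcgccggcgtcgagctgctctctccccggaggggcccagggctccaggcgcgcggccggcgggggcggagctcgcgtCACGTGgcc
Mogat1: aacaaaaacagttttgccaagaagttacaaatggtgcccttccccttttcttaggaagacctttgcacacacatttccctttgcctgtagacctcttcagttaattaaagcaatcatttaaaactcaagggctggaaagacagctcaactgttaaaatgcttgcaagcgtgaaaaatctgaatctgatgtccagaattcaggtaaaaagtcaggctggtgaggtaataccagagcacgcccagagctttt
Pnpla3: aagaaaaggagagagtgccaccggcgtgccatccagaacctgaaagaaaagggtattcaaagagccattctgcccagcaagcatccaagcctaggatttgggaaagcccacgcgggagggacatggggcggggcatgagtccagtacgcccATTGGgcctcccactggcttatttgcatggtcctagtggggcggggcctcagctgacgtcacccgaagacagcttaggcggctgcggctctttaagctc

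The upstream start of *Gpam* carried 16213 and 18429 counts, 98.5% and 99.7% of the gene. Its promoter has a GC content of 54.8% with 7 CpG and 1 CCAAT box, close to the mouse median of 52.4% and 6 CpG. The downstream start, with 66.0% GC, 21 CpG and no match, carried 238 and 37 counts, a log2 ratio of -2.35 (-2.95 to -1.90), against 0.46 (0.43 to 0.49) for the upstream one. In *Lpin2*, the start with 44.8% GC, 3 CpG and 3 CCAAT boxes carried 10167 and 11920 counts, and the group of starts around the upstream one, with 65.2% GC, 26 CpG and an E-box, carried 1197 and 1476. Both had more counts with AAV-*Wee1-AS*, with log2 ratios of 0.51 (0.47 to 0.55) and 0.58 (0.47 to 0.69). The other 2 start groups of *Lpin2* carried 248 and 189 counts (-0.11, -0.39 to 0.16) and 117 and 7 (-3.48, -5.13 to -2.70). The *Mogat1* promoter has 41.2% GC, 2 CpG and no match, and that of *Pnpla3* has 58.4% GC, 11 CpG and 1 CCAAT box. The *Mogat1* region ends at the start of its transcript with 87 and 0 counts, while its main transcript begins downstream, at chr1:78511139. Bases shortly after that region were not found in a GENCODE transcript of *Mogat1*. The *Pnpla3* region ends at the start of a transcript with 0 counts in both libraries, and the transcripts that held its counts begin slightly upstream. In *Mttp*, the main start carried 18850 and 20897 counts and an upstream group 445 and 857, with log2 ratios of 0.43 (0.40 to 0.46) and 1.22 (1.06 to 1.39). A match is a description of these letters only, and the factors that bind such motifs were not measured.

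A further 83 genes of the same pathways were listed by role, and 81 of them passed the count filter. Of these, 10 were past 2-fold higher with AAV-*Wee1-AS* and 5 past it lower, which is 18.5%, against 31.0% of all genes. With at least 10 counts required in both libraries, 3 were past it lower, since *Aqp7* and *Mogat2* passed the filter through the AAV-GFP library alone. Their median log2 ratio was -0.10, and -0.03 with both trends removed, when 3 were past 2-fold higher and 4 lower, so that the balance of higher and lower genes turned. It turned with the length trend alone removed as well, to 7 higher and 10 lower. Among 15 genes of VLDL assembly, which act with *Mttp*, 3 were past 2-fold higher (20.0%, against 22.5% of all genes) and none lower. *Apob*, the structural protein of VLDL, rose from 71263 counts to 209460, with a log2 ratio of 1.83 (1.82 to 1.85), but was at 0.03 with the trends removed. *Mia2* (6558 and 14887 counts) and *Mia3* (2659 and 7327), which help large cargo leave the endoplasmic reticulum, had log2 ratios of 1.46 and 1.74, and 0.67 and 1.10 with the trends removed. *Apoc3*, the most abundant of this list in TPM, had 113977 and 59314 counts and a log2 ratio of -0.66, which turned to 0.08 with the trends removed. *Vmp1*, with 4657 and 3687 counts and a log2 ratio of -0.06, was at -1.03 with the trends removed.

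**Figure D5:**
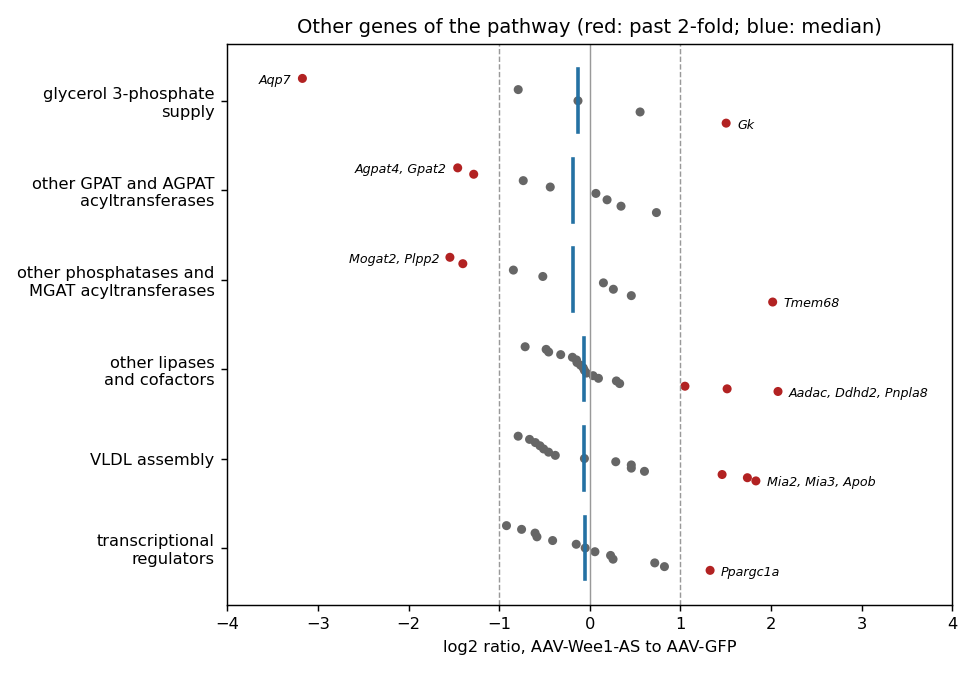
Log2 ratio, AAV-*Wee1-AS* over AAV-GFP, for the other pathway genes past the count filter, by role, without the list for uptake of circulating triglyceride. Each point is 1 gene in 1 library per group, red points are past 2-fold (dashed lines) and named from left to right, and blue bars are the medians of each list. *Aqp7* is the lowest at -3.17 and *Pnpla8* the highest at 2.08.

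Among the 18 other lipases and cofactors that passed the filter, which act beside *Pnpla2*, 3 were past 2-fold higher (16.7%, against 22.5% of all genes) and none lower. These were *Pnpla8* (1178 and 4106 counts, log2 ratio 2.08), *Ddhd2* (518 and 1225, 1.52) and *Aadac* (11477 and 19607, 1.05), and with the trends removed they were at -0.12, 0.82 and -0.03. *Ces3a*, the most abundant of this list in TPM, had a log2 ratio of -0.06, and 0.05 with the trends removed. The coactivator of *Pnpla2*, *Abhd5*, had 1375 and 1212 counts (0.10, -0.02 to 0.21), and its inhibitor *G0s2* had 6194 and 6422 (0.33, 0.28 to 0.38). With the trends removed, *Abhd5* turned to -0.59 and *G0s2* was at 1.05, past 2-fold higher.

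Glycerol 3-phosphate, the substrate of *Gpam*, is supplied by glycerol kinase and glycerol 3-phosphate dehydrogenase. *Gk* rose from 2049 counts to 4800 (2.84-fold, 2.70 to 2.99, and a log2 ratio of -0.03 with the trends removed), *Gpd1* had 61533 and 29359 (log2 ratio -0.79, and -0.19 with the trends removed), and the glycerol channel gene *Aqp7* fell from 94 counts to 7 (-3.17, and -3.20 with the trends removed). Among the 8 other acyltransferases of the first steps, *Agpat4* fell from 157 counts to 46 (-1.46), and *Agpat3*, the most abundant in TPM with AAV-GFP, had 24696 and 12245 (-0.73). *Gpat2* was also past 2-fold lower, with a counting interval that reaches inside it. With the trends removed, *Agpat4* was at -0.93 and *Gpat2* at -0.74, so neither was past 2-fold, while *Agpat5*, with 465 and 402 counts and a log2 ratio of 0.07 as measured, was at -1.71. Among 8 other phosphatases and acyltransferases, *Plpp2* fell from 2110 to 658 (-1.40) and *Tmem68* rose from 60 to 206 (2.02). *Mogat2*, the paralog of *Mogat1*, had 36 and 9 counts (-1.54, -2.96 to -0.64). With the trends removed, *Plpp2* was at -0.72, *Tmem68* at 0.63 and *Mogat2* at -0.90, and no gene of this list was past 2-fold, against 3 of 8 (37.5%) as measured and 31.0% of all genes. *Plpp3*, the most abundant of them in TPM, had a log2 ratio of 0.26.

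Of 14 genes for uptake and lipolysis of circulating triglyceride, 1 was past 2-fold (7.14%, against 31.0% of all genes), and the median log2 ratio was -0.43. *Sdc1*, the most abundant of this list in TPM with AAV-GFP, had a log2 ratio of -0.54, and -0.08 with the trends removed. *Lpl*, with 648 and 551 counts and a log2 ratio of 0.04, was past 2-fold lower, at -1.12, with the trends removed. Of 13 transcriptional regulators, 1 was past 2-fold (7.69%, against 31.0% of all genes), *Ppargc1a*, which rose from 103 counts to 216 (1.33, 1.00 to 1.70) and was at -0.36 with the trends removed. *Ppargc1b*, its paralog, had 275 and 374 counts (0.72, 0.49 to 0.95) and was past 2-fold higher, at 1.23, with the trends removed. *Srebf1*, which drives lipogenic genes and was the most abundant regulator in TPM with AAV-GFP, had 33483 and 18436 counts (-0.58, and -0.13 with the trends removed). *Pparg*, a nuclear receptor gene of lipid storage, had 1022 and 877 (0.06, -0.07 to 0.19).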

How the data were processed

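Poly-A RNA from 1 liver library of each group was sequenced. The table deposited by the authors lists transcripts (mm10) with their length in bases and, per library, estimated counts that are not normalized, FPKM values (scaled per kilobase and library) and TPM values (scaled to an equal sum). The submitters' processing notes list Trimmomatic 0.38, HISAT2 2.1.0, SAMtools 1.9 and StringTie 2.1.3b, with no role given. Counts, which are whole numbers, were added up per gene symbol and scaled with TMM factors (edgeR 4.0.16, R 4.3.3). Log2 ratios used a prior count of 2, and genes that reached 10 counts in 1 or both libraries were kept. No count test was run, since there is no spread within a group. Intervals are exact Clopper-Pearson 95% intervals, and 3 counts were the floor. GC content came from the longest coding GENCODE transcript of the gene symbol (14995 genes, 94.6% of those kept). Trends were removed by lowess with a span of 0.3 over 5 cycles, first with the length of that GENCODE transcript (for length alone, the longest deposited transcript). The length of the most abundant transcript was tried afterwards, once the first values had been seen, and both are given. The steps were tested on simulated data. Python 3.11.15, numpy 2.4.6, pandas 2.3.3, scipy 1.17.1, statsmodels 0.14.6 and matplotlib 3.10.9 were used.

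The text names all 10 genes, each of their transcripts with at least 10% of the counts in a library, the most abundant gene of each pathway list in TPM with AAV-GFP, and each list gene whose counting interval lay wholly past 2-fold. One gene that this rule names is not reported here. Other genes and transcripts named were chosen after their values were seen. The 10 genes and all lists were chosen with earlier results of these data known. The alternatives were scaling by library totals, by DESeq2 1.42.0 size factors or by the upper quartile, a prior count of 0.5, FPKM and TPM with a pseudocount of 1, other count filters, removal of trends, the most abundant transcript of each gene, and curated RefSeq transcripts only.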

Additional observations from a re-analysis of the deposited data

How the results depend on the processing

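With 2 of the 10 genes past 2-fold and a median log2 ratio of -0.46 as reported, the count was 1 with FPKM, with TPM, with the GC and length trends removed by either length, and with curated RefSeq transcripts only, which hold no *Pnpla3* counts. The median was -0.53 with library totals, -0.49 with DESeq2 size factors, -0.59 with the upper quartile (which moved the median of all genes to -0.13), -0.34 with FPKM, -0.54 with the most abundant transcript and -0.50 with curated transcripts. It was -0.085 with the GC and length trends removed and -0.53 with the length trend alone. With the length of the most abundant transcript, chosen after the first values were seen, these were -0.15 and -0.50. Of all genes, 4909 were past 2-fold, against 1336 with FPKM, 2046 with TPM, 2208 with the GC and length trends removed (979 higher and 1229 lower, against 3572 and 1337) and 2061 with the other length. Of the pathway list genes, 15 were past 2-fold, against 8, 7 and 6 with FPKM and with the trends removed by each length. Higher against lower, these were 10 and 5 as reported, 3 and 4 with the GC and length trends removed, and 1 and 5 with the other length. They were 7 and 10 with the length trend alone by either length, but 7 and 1 with FPKM and 9 and 1 with TPM. With at least 10 counts in both libraries, lower genes numbered 3 in these lists and 843 of all genes.

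*Mogat1* was past 2-fold lower in all 15 alternatives. The other count filters cannot change the ratio of a gene that they keep, so in the tallies given here they only repeat the reported value. The log2 ratio of *Mogat1* lay between -1.59 and -1.07, apart from curated transcripts only. There, 87 and 0 counts give a bound of at least 23.9-fold lower, which does not cover how reads shared with the main transcript were assigned. *Pnpla3* was past it in 10 of the 14 that measured it, of which the most abundant transcript (130 and 0 counts) reflects counts assigned to another transcript. *Lpin1* was lower in all 15. *Agpat2*, *Dgat1*, *Dgat2*, *Pnpla2* and *Mttp* kept their direction in 13 of 15, and turned where the GC and length trends were removed. *Lpin2* kept it in 12 of 15 and *Gpam* in 11, since removal of the length trend alone also turned them, to -0.60 in *Lpin2* with the longest transcript and -0.16 with the most abundant one, and to -0.16 and -0.27 in *Gpam*. The cause was not tested. No paired analysis was possible because each group has 1 library, and no library could be left out for the same reason. Depth limits *Pnpla3* most, with 137 and 50 counts.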
